A study of Mus musculus with 4 samples.

Results

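Toll-like receptors are membrane receptors that recognise molecules of microbes. Those at the cell surface bind lipids and proteins, and those of the endosome bind nucleic acids. Most pass the signal to the adaptor Myd88 through their cytoplasmic TIR domain, and the kinases and transcription factors downstream switch on cytokines and interferons. In the kidney they are known from resident macrophages and, at lower levels, from epithelial cells. The genes of this system followed by name were Tlr1, Tlr2, Tlr3, Tlr4, Tlr7, Tlr8, Tlr9, Tlr12, the adaptor Myd88 and the chaperone Unc93b1, and all 10 were found among the 38201 genes of the table by their symbols. The rule takes genes by name and uses no measured value, but the genes were chosen with earlier results of these data known. Counts of members beside the share of all genes are therefore descriptions and not an independent contrast.

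RNA was sequenced from cells of mouse embryonic kidney at embryonic day 18.5 (E18.5), sorted for binding of the lectin DBA (Dolichos biflorus agglutinin), which marks the ureteric epithelium and the collecting ducts that form from it. The 2 genotypes compared had 2 libraries each. DKO embryos were Esrp1 -/-, Esrp2 -/-, and control embryos were Esrp1 +/+, Esrp2 -/-, so that both groups lacked Esrp2 and differed in Esrp1, an epithelial splicing regulator. Both losses were germline losses, present in every cell of the embryo and not in the epithelium alone, and each library held RNA pooled from 3 embryos.

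Values are FPKM as deposited by the authors, fragments per length of transcript scaled to the fragments mapped in a library. Esrp1 stood at 8.65 and 7.29 FPKM in DKO replicates 1 and 2 and at 27.0 and 31.4 FPKM in control replicates 1 and 2, with a limma adjusted p of 0.143. Read totals are not part of the table, and the steps between its lowest values put control replicate 1 at 0.508 times the depth of DKO replicate 1, against 1.09 and 1.10 for DKO replicate 2 and control replicate 2. The 12 ureteric epithelium markers, among them Aqp2 and Calb1, summed to 1607 to 1701 FPKM in DKO and to 1184 to 1636 FPKM in control libraries, so the defining markers of the labelled cell type were present. Control replicate 1 stood apart from the other libraries, with the lowest depth, the lowest sum of epithelial markers and the highest sum of macrophage markers.

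The receptor genes lie on several chromosomes (GENCODE M21, mm10). Tlr1 is at chr5:64924679-64933563 on the minus strand, Tlr2 at chr3:83836272-83841767 (minus), Tlr4 at chr4:66827584-66930284 (plus) and Tlr12 at chr4:128615443-128618619 (minus). Tlr3 is at chr8:45395665-45411080 (minus) and Tlr9 at chr9:106222598-106226883 (plus). Tlr7, at chrX:167304929-167330558, and Tlr8, at chrX:167242696-167264329, are neighbours on the minus strand of the X chromosome. Myd88 is at chr9:119335934-119341411 (minus) and Unc93b1 at chr19:3935186-3949340 (plus). None of the 10 shares exon bases with another gene on its own strand, while Gm45542 and Acaa1a overlap Tlr3 and Myd88 from the opposite strand. The locus deposited for Myd88 spans 5 other coding genes, while those of the receptors span none, and whether this bears on its FPKM was not tested.

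Proximal promoters, 250 bases before to 50 bases after the annotated start, were read from RefSeq (GRCm38.p6) and are shown because some members differed together between the groups and others did not. Of the 10 genes, 7 had an entry, Tlr1 with 2 starts, and Tlr4, Tlr7 and Unc93b1 had none. The first pair is Tlr9, lower in both DKO libraries, at chr9:106222348-106222647 on the plus strand, and Tlr3, at like levels in both groups, at chr8:45410331-45410630 on the minus strand. Capitals mark GAGGAA on either strand, a form of the motif of ETS factors, the family that holds the myeloid regulator PU.1. The shorter core GGAA of these factors is not marked, and the Tlr3 window holds it on both strands.
Tlr9 promoter: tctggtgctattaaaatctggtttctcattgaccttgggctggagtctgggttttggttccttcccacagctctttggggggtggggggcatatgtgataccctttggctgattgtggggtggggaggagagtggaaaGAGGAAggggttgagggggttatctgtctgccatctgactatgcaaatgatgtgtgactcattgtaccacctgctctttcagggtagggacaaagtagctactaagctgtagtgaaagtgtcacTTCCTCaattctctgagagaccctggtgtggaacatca
Tlr3 promoter: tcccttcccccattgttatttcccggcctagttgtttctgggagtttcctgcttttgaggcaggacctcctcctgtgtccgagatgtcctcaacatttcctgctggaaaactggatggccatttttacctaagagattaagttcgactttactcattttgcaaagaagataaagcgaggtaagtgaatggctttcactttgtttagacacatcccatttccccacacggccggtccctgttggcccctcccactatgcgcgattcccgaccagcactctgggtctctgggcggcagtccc
The Tlr9 window held GAGGAA in 2 places, the first base of the match at -112 and, on the opposite strand, at 13, counting the start base as 1. The Tlr3 window held no GAGGAA. GC content was 49.7% for Tlr9 and 51% for Tlr3, against a median of 52.7% over all promoters.

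Shorter windows show the remaining matches beside their flanks. Tlr1 held GAGGAA at -23 (chr5:64933564-64933593, minus strand), in the window of 1 of its 2 starts. Tlr8 held it on the opposite strand at -77 (chrX:167264389-167264418, minus strand). In Myd88 the capitals mark an IRF element (2 copies of GAAA with 2 bases between them), the motif of interferon regulatory factors, at -40 (chr9:119340037-119340070, minus strand).
Tlr1 window: aattaaatgttgGAGGAAgtaggagcttga
Tlr8 window: tataaatgacttTTCCTCtgaattcagttt
Myd88 window: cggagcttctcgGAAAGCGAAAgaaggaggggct
Every motif was searched on both strands. GAGGAA was present in 28.3% of the 32851 promoters of the reference, so matches in Tlr1, Tlr8 and Tlr9 and none in Tlr2, Tlr3, Tlr12 and Myd88 describe these windows and no more. The IRF element was present in 3.44% of promoters and, among the members, in Myd88. The composite ETS and IRF motif (GGAA and GAAA with 2 bases between them), which overlaps both motifs, was in 2.72% of promoters and in none of these windows. TATAAA was in 13.6% of promoters, and in those of Tlr8 and Myd88.

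Loss of Esrp1 was compared with the control for each gene with limma on log2(FPKM + 0.5), with p-values adjusted by the Benjamini-Hochberg method over the 18884 genes with more than 0.1 FPKM on average in at least 1 group. All 10 members passed that filter. In 7 of them, Tlr1, Tlr2, Tlr4, Tlr7, Tlr8, Tlr9 and Unc93b1, the average was at least 2-fold lower in DKO than in control libraries, while Tlr3, Tlr12 and Myd88 had DKO averages close to those of the controls. None of the 10 passed an adjusted p of 0.05 with a ratio of at least 2, against 1 lower gene of the 18884 (0.00530%). Without the adjustment, 7 members had a p under 0.05 and a lower level in DKO, against 7.35% of all genes, and none had a higher level at that p, against 3.35%. The median log2 fold change of the 10 was -1.30 beside -0.01 for all genes tested. Permuting the 4 libraries exactly can give no p below 0.333 for any one gene. The paper, by its own analysis of the same libraries, reported far more transcripts as changed and named toll-like receptors among the genes with altered expression.

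Among the receptors of the cell surface, Tlr2, which pairs with other members to bind bacterial lipoproteins, stood at 3.44 and 2.94 FPKM in DKO and at 11.6 and 6.61 FPKM in control libraries. Tlr1, a partner of Tlr2 for triacylated lipopeptides, stood at 2.43 and 2.12 FPKM in DKO and at 10.3 and 4.41 FPKM in control libraries. Tlr4, the receptor for bacterial lipopolysaccharide, stood at 3.09 and 2.84 FPKM in DKO and at 13.8 and 5.41 FPKM in control libraries. For each of these 3 receptors both DKO libraries lay below both controls, and the DKO libraries were closer to each other than the controls were. Log2 fold changes were -1.33 ± 0.303 (SE) for Tlr2, -1.39 ± 0.410 for Tlr1 and -1.41 ± 0.442 for Tlr4. Limma adjusted p-values were 0.380, 0.394 and 0.402. Tlr1 shares 7.89% of its 100-base transcript windows with Tlr6, the only pair with any such window among 91 pairs of the 14 genes compared, so the levels of Tlr1 and Tlr6 are uncertain to that extent.

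Of the endosomal sensors, Tlr7, a receptor for RNA with a single strand, had the highest mean of the receptors in both groups, with 4.67 and 3.90 FPKM in DKO and 25.7 and 10.2 FPKM in control libraries. Its average was 4.19-fold higher in control libraries (log2 fold change -1.81 ± 0.444, adjusted p = 0.380 by limma), the widest ratio of the 10 members. Tlr9, which binds DNA with unmethylated CpG, stood at 2.11 and 1.74 FPKM in DKO and at 11.2 and 4.32 FPKM in control libraries. The ratio of averages was 4.03, with a log2 fold change of -1.63 ± 0.455 and an adjusted p of 0.384. In both genes the lower control library was more than 2 times the DKO mean, at 2.37 times for Tlr7 and 2.24 times for Tlr9.

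Tlr8, a sensor of RNA fragments in human cells, stood at 2.12 and 1.85 FPKM in DKO and at 5.88 and 5.16 FPKM in control libraries. It had the narrowest spread between controls of the 7 lower members, control replicate 1 being 1.14 times control replicate 2, whereas that ratio ran from 1.75 to 2.59 in the other 6. Its log2 fold change of -1.28 ± 0.210 carried the smallest p of the members (0.00185, the 86th smallest of all genes, limma adjusted p = 0.365). Tlr8 and its neighbour Tlr7 thus took different courses between the controls, 2.53 times apart for Tlr7 and 1.14 times for Tlr8.

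Tlr3 differed from the other endosomal sensors. This receptor for paired RNA strands, which signals through the adaptor Ticam1 and not through Myd88, stood at 4.04 and 4.30 FPKM in DKO and at 4.12 and 4.83 FPKM in control libraries. The groups overlapped, with control replicate 1 between the DKO libraries, and the log2 fold change was -0.09 ± 0.195 (adjusted p = 0.884 by limma). Tlr12, which with Tlr11 recognises a profilin of Toxoplasma in mice, stood at 1.16 and 0.634 FPKM in DKO and at 0.987 and 0.832 FPKM in control libraries. Its 2 DKO libraries enclosed both controls, and its log2 fold change was -0.04 ± 0.292. For both genes the sign of this small difference turned under other settings, among them rescaling to TPM.

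Unc93b1 carries the nucleic acid sensors from the endoplasmic reticulum to the endosome, and was the most abundant member. It stood at 28.6 and 26.0 FPKM in DKO and at 82.9 and 42.3 FPKM in control libraries, so that the groups did not overlap (log2 fold change -1.11 ± 0.323, adjusted p = 0.393 by limma). Myd88, the adaptor of every receptor among the members but Tlr3, stood at 11.1 and 10.8 FPKM in DKO and at 15.2 and 11.9 FPKM in control libraries. Both DKO libraries were below both controls, but by less than 0.5 on the log2 scale (-0.28 ± 0.165, adjusted p = 0.617), and after rescaling to TPM the groups overlapped.

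**Figure D1:**
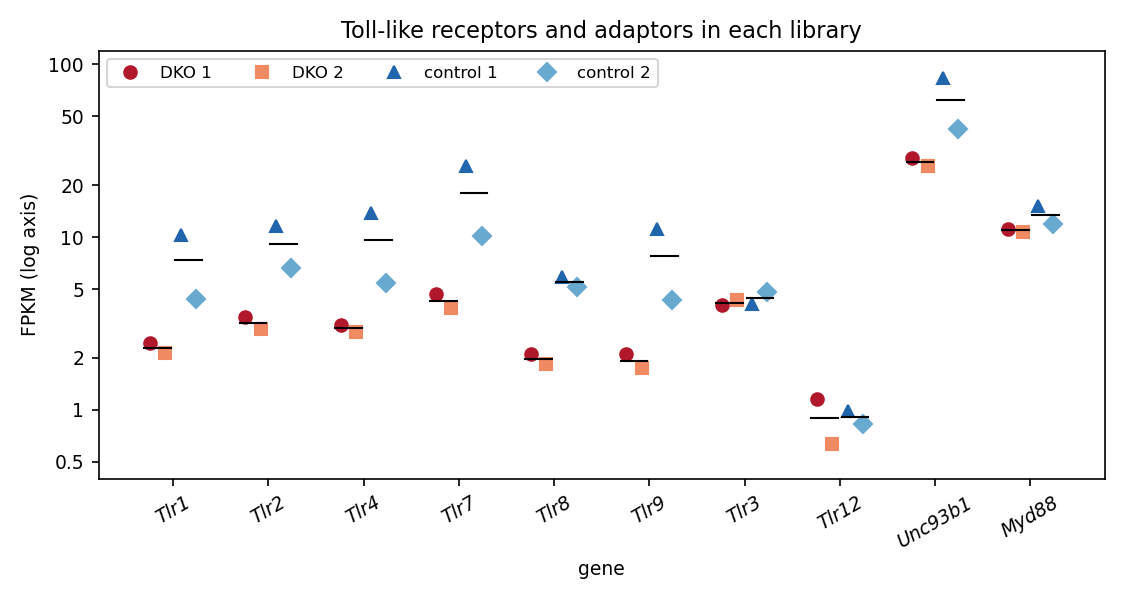
FPKM of the 10 members in each of the 4 libraries on a log axis, with 1 symbol per library and a bar at each group mean. The controls lie above the DKO libraries for Tlr1, Tlr2, Tlr4, Tlr7, Tlr8, Tlr9 and Unc93b1, with control replicate 1 the highest, and the groups overlap for Tlr3 and Tlr12.

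Counted over the 10, 8 members had both DKO libraries below both controls, against 22.6% of all genes, and 2 overlapped. None had both DKO libraries above both controls, against 20.8%. The count of members at least 2-fold lower, 7 of 10 beside 9.91% of all genes, was 4 without control replicate 1, where Tlr2, Tlr7, Tlr8 and Tlr9 remained. The 7 lower members then had log2 fold changes from -1.19 to -0.63. The count of lower members with an unadjusted p under 0.05 fell without either DKO library, as did that over all genes. Log2 fold changes of the 7 ran from -1.925 to -1.176 without DKO replicate 1 and from -1.694 to -1.037 without DKO replicate 2. They ran from -2.458 to -1.365 without control replicate 2.

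Of the 4 family members outside the 10, Tlr5, Tlr6 and Tlr13 had lower averages in DKO, and Tlr11 was near 0. Tlr5, which binds flagellin, stood at 2.37 and 2.40 FPKM in DKO and at 8.66 and 3.57 FPKM in control libraries (log2 fold change -1.08, limma adjusted p = 0.466). Tlr13, a sensor of bacterial ribosomal RNA in mice, stood at 2.24 and 1.85 FPKM in DKO and at 9.09 and 3.74 FPKM in control libraries (-1.33, adjusted p = 0.409). Tlr6, another partner of Tlr2, stood at 0.950 and 0.594 FPKM in DKO and at 3.14 and 1.33 FPKM in control libraries (-1.03, adjusted p = 0.474). In these 3 both DKO libraries lay below both controls, and Tlr13 had an unadjusted p under 0.05, as the 7 lower members did, while Tlr5 and Tlr6 were just above it. Tlr11 was below the filter, listed at 0 in 1 library of each group and at no more than 0.0516 FPKM in the others.

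The 12 receptors together summed to 28.6 and 25.2 FPKM in DKO and to 104 and 50.4 FPKM in control libraries. Tlr7 made up 16.3% and 15.5% of that sum in DKO and 24.6% and 20.2% in control libraries. The share of Tlr3 was 14.1% and 17.1% in DKO and 3.94% and 9.57% in control libraries. Both shares were apart between the groups, Tlr7 with the larger share in controls and Tlr3 in DKO. The shares of Tlr1 and Tlr9, larger in controls, and of Tlr12, larger in DKO, were apart as well. The FPKM of Tlr3 were near equal between the groups, so its larger share in DKO goes with the smaller sum. In control libraries the order of means ran from Tlr7 at 17.9 FPKM through Tlr4, Tlr2, Tlr9, Tlr1, Tlr13, Tlr5, Tlr8 and Tlr3 to Tlr6, Tlr12 and Tlr11. The ranges of neighbours overlapped from Tlr7 to Tlr8. Within each control library the neighbours kept this order, except Tlr4 and Tlr2, Tlr9 and Tlr1, and Tlr5 and Tlr8, which changed places in control replicate 2. The place of Tlr3 differed between the controls, since in control replicate 2 (4.83 FPKM) it was below only Tlr7, Tlr2, Tlr4 and Tlr8. In DKO it ran from Tlr7 at 4.29 FPKM through Tlr3, Tlr2, Tlr4, Tlr5, Tlr1, Tlr13, Tlr8 and Tlr9 to Tlr12, Tlr6 and Tlr11. Tlr3 was above Tlr7 in DKO replicate 2 and Tlr1 above Tlr5 in DKO replicate 1, and the other neighbours kept this order within both DKO libraries.

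**Figure D2:**
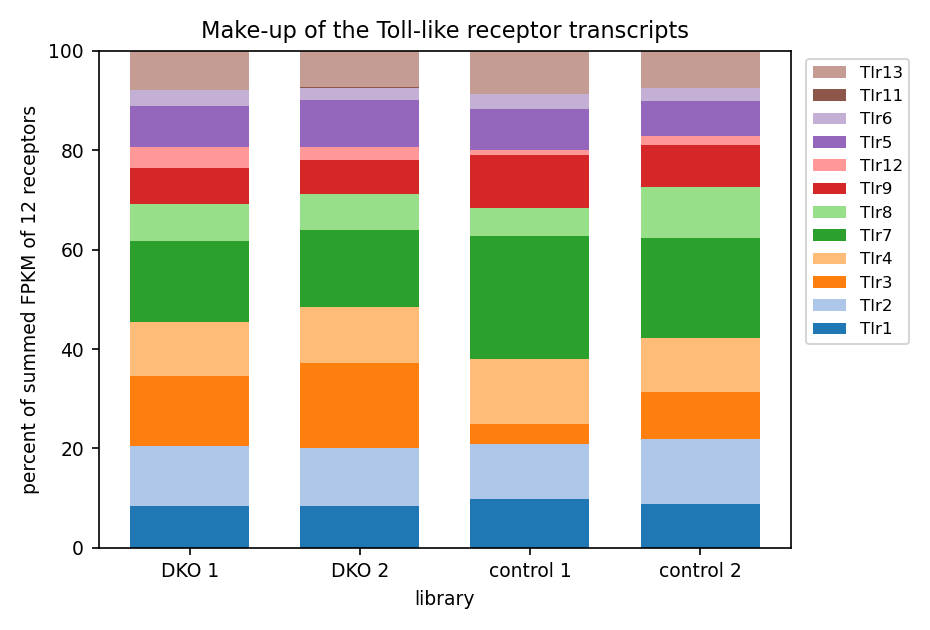
Share of each Toll-like receptor, in percent of the summed FPKM of the 12 receptors, as 1 stacked bar per library. Tlr3 takes 14.1% and 17.1% of the sum in DKO and 3.94% and 9.57% in control libraries, and the other large share, that of Tlr7, is larger in the controls.

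Markers of macrophages differed between the libraries along with the receptors. All 14 macrophage markers measured, among them C1qb and C1qc, had an unadjusted p under 0.05 and both DKO libraries below both controls. Over all genes, 7.35% were lower at that p and 22.6% had that order. None of the 14 markers passed an adjusted p of 0.05. They summed to 539 to 569 FPKM in DKO and to 1067 to 2223 FPKM in control libraries, with a median log2 fold change of -1.50, and none was at 0. The median log2 ratio of control replicate 1 over control replicate 2 was 1.06 for these markers and 0.86 for the 10 members. In RNA from a mixture of cells, fewer macrophages and less RNA of these genes per macrophage cannot be told apart, nor can receptor RNA of epithelial cells be told apart from that of other sorted cells.

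Per library, each member was set against the mean log2(FPKM + 0.5) of the 14 macrophage markers, a description with no test. On this scale the difference of DKO minus control was 0.10 for Tlr1, 0.16 for Tlr2, 0.09 for Tlr4, 0.22 for Tlr8, -0.14 for Tlr9 and -0.31 for Tlr7, next to the -1.50 of the markers themselves. For Tlr2, Tlr4, Tlr8 and Tlr9 the libraries of the 2 groups overlapped, and for Tlr1 they all but met, at -3.25 and -3.32 in DKO against -3.33 and -3.45 in control libraries. The sign for Tlr8 turned without control replicate 1 (-0.20, against 0.64 without control replicate 2), that for Tlr4 turned without control replicate 2 (-0.04), and the difference for Tlr9 was near 0 without control replicate 1. Tlr7 was lower relative to the markers in both DKO libraries, at -2.43 and -2.57 against -2.05 and -2.34, and its difference was -0.17 without control replicate 1. Unc93b1 was higher relative to them, at 0.06 and 0.01 in DKO against -0.38 and -0.33 in control libraries.

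The other 3 members did not move with the markers. Relative to them, the difference of DKO minus control was 1.41 for Tlr3, 1.46 for Tlr12 and 1.21 for Myd88, and both DKO libraries were above both controls for each. The scale fixes this order, because the level of the markers was itself lower in DKO (difference -1.50). Any gene near equal between the groups is placed higher in DKO in this way, so the order is not particular to these genes. Tlr3, for example, stood at -2.62 and -2.45 in DKO and at -4.55 and -3.34 in control libraries on this scale. Leaving the 3 complement C1q genes out of the markers gave differences of 1.42, 1.47 and 1.23. Without control replicate 1 they were 0.80 for Tlr3, 1.03 for Tlr12 and 0.88 for Myd88, and without control replicate 2 they were 2.02, 1.89 and 1.55.

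**Figure D3:**
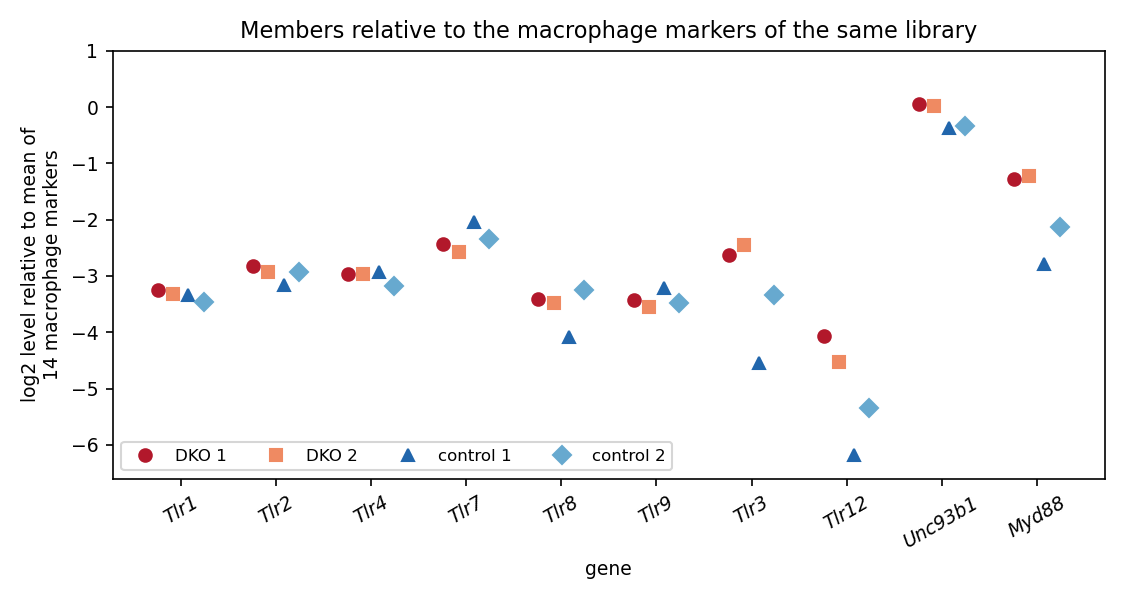
Level of each member relative to the mean of 14 macrophage markers of the same library, as a difference of log2(FPKM + 0.5), with 1 symbol per library. Tlr2, Tlr4, Tlr8 and Tlr9 overlap between the groups on this scale, the groups of Tlr1 all but meet, and Tlr3, Tlr12 and Myd88 are higher in both DKO libraries. The scale places any gene near equal between the groups higher in DKO.

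Markers of other cells were read the same way. The 5 leukocyte genes had both DKO libraries below both controls, against 22.6% of all genes, but by unequal amounts. Ptprc, named after its values were seen, stood at 14.8 and 13.5 FPKM in DKO and at 25.7 and 16.2 FPKM in control libraries. Its log2 fold change was -0.51, and those of the other 4 ran from -1.79 to -1.37. Of 8 neutrophil genes, Ly6g, Elane and Mpo were listed at 0 in all libraries, and the sum of the list, nearly all of it S100a8 and S100a9, was 48.2 to 65.6 FPKM in DKO and 104 to 118 FPKM in control libraries. Sums were 9.76 to 11.9 against 13.1 to 15.7 FPKM for 5 B cell genes, 2.46 to 2.61 against 4.78 to 9.40 FPKM for 6 T cell genes, 7.40 to 7.79 against 6.61 to 9.42 FPKM for 6 dendritic cell genes, and 1.56 to 3.06 against 1.19 to 5.16 FPKM for 6 mast cell and basophil genes. These lists were low beside the macrophage list, and single genes made up most of the T cell and dendritic cell sums. Cd4 stood at 2.34 and 1.54 FPKM in DKO and at 8.04 and 2.91 FPKM in control libraries. Zbtb46 overlapped between the groups, at 6.97 and 7.40 against 7.83 and 5.51 FPKM. Siglech was lower in DKO, at 0.246 and 0.324 against 1.37 and 1.10 FPKM. Of the B cell genes, Cd79b was lower in both DKO libraries and Cd79a higher, at 2.81 and 2.68 against 1.77 and 1.94 FPKM. Proximal tubule genes were also lower in DKO, 110 to 132 against 269 to 295 FPKM for 6 genes, of which Gatm was called. Stroma (137 to 243 against 60.9 to 88.6 FPKM for 7 genes) and endothelium (117 to 158 against 58.1 to 104 FPKM for 7 genes) had higher sums in DKO. The part of these cells in the levels of the receptors was not tested.

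Of 10 co-receptors and chaperones, 5 had both DKO libraries below both controls, against 22.6% of all genes, and 5 overlapped. Hsp90b1, the chaperone that folds most Toll-like receptors, stood at 343 and 353 FPKM in DKO and at 340 and 364 FPKM in control libraries, and its partner Cnpy3 and the ligand Hmgb1 overlapped between the groups as well. Cd14, which hands lipopolysaccharide to Tlr4, stood at 4.28 and 3.46 FPKM in DKO and at 18.1 and 6.73 FPKM in control libraries, and was named after its values were seen, as were Cd180, Ly86, Ly96 and Lbp. Cd180 and Ly86, a receptor pair related to Tlr4 and its partner, were at 2.94 and 2.60 against 15.9 and 6.06 FPKM, and at 14.3 and 11.9 against 49.5 and 25.6 FPKM. Ly96, the partner of Tlr4, overlapped between the groups, at 7.70 and 2.69 against 6.42 and 6.81 FPKM, as did Lbp, which binds lipopolysaccharide in serum, at 10.7 and 15.6 against 7.54 and 12.7 FPKM. At an unadjusted p under 0.05, 5 of the list had a lower level in DKO, against 7.35% of all genes, and none a higher one. None passed the adjusted test. The median log2 fold change of the list was -0.61.

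The other TIR adaptors differed less between the groups than the 7 lower members, apart from Pik3ap1. Ticam1, the adaptor of Tlr3, stood at 8.58 and 7.76 FPKM in DKO and at 8.03 and 8.90 FPKM in control libraries, and the groups overlapped. Tirap, which bridges Tlr2 and Tlr4 to Myd88, stood at 4.17 and 4.49 FPKM in DKO and at 5.63 and 4.83 FPKM in control libraries. Pik3ap1, an adaptor towards PI3 kinase found in B cells and macrophages, stood at 4.26 and 3.78 FPKM in DKO and at 13.9 and 9.23 FPKM in control libraries, and was the 1 adaptor of 5 with an unadjusted p under 0.05 (0.00238, limma adjusted p = 0.365). Ticam2, the bridge from Tlr4 to Ticam1, was also named after its values were seen and stood at 2.61 and 2.52 FPKM in DKO and at 7.77 and 3.13 FPKM in control libraries. The list had a median log2 fold change of -0.24. Over all genes, 7.35% were lower at an unadjusted p under 0.05.

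Downstream kinases and ubiquitin ligases, used by many receptors in most cells, were mostly near equal. Of 12 genes that act between the adaptors and the kinase TAK1, with TAK1 and its subunits included, 1 was lower in DKO at an unadjusted p under 0.05. That share was 7.35% over all genes. The median log2 fold change of the 12 was -0.07. Irak1, a kinase recruited by Myd88, stood at 36.7 and 37.4 FPKM in DKO and at 40.7 and 31.5 FPKM in control libraries. Tab2, a TAK1 subunit, and Ube2n, a ubiquitin-conjugating enzyme, were below the controls in DKO by small amounts, at 60.7 and 56.3 against 79.7 and 62.9 FPKM and at 29.9 and 31.4 against 35.6 and 34.0 FPKM. The 13 genes of the IKK, NF-kappa-B and MAP kinase branches had a median of -0.16, with 1 lower gene, Relb, at an unadjusted p under 0.05. The widest log2 fold change was -1.01 for Map3k8, named like Relb after its values were seen. The 3 most abundant, Mapk14, Ikbkb and Chuk, lay between 22.8 and 41.8 FPKM in every library. Among 8 negative regulators the median was -0.15, and 1 was lower at an unadjusted p under 0.05, Tnfaip3, named after its values were seen. It stood at 3.50 and 2.99 FPKM in DKO and at 13.5 and 6.28 FPKM in control libraries (log2 fold change -1.39). Nfkbia, Tollip and Sigirr, the most abundant of these restraints on the pathway, differed by less than 0.5 on the log2 scale. Socs1, also named later, was above both controls in both DKO libraries.

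Interferon regulatory factors and the cytokines at the end of the pathway stood closer to the receptors. Irf7, the factor through which Tlr7 and Tlr9 switch on type I interferon, was at 5.70 and 5.52 FPKM in DKO and at 54.0 and 19.4 FPKM in control libraries, a log2 fold change of -2.43 ± 0.479 (limma adjusted p = 0.375). Irf8, a factor of myeloid development, was at 5.58 and 4.52 against 17.9 and 8.32 FPKM, and the widely expressed Irf3 at 34.3 and 34.0 against 52.8 and 38.3 FPKM. All 4 genes of the list had both DKO libraries below both controls, against 22.6% of all genes. At an unadjusted p under 0.05, 3 were lower, against 7.35% of all genes. Of 15 output cytokines, 13 could be tested, and 5 had a lower level in DKO at that p and none a higher one. Ccl2 and Ccl3, chemokines that draw monocytes, stood at 5.25 and 3.96 against 43.7 and 12.6 FPKM and at 4.82 and 2.00 against 36.0 and 8.62 FPKM. Ccl4 stood at 3.48 and 1.34 against 9.98 and 3.59 FPKM. Il12b and Ifnb1 were listed at 0 in all 4 libraries. None of these genes passed the adjusted test, and the median of the cytokine list was -0.99.

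**Figure D4:**
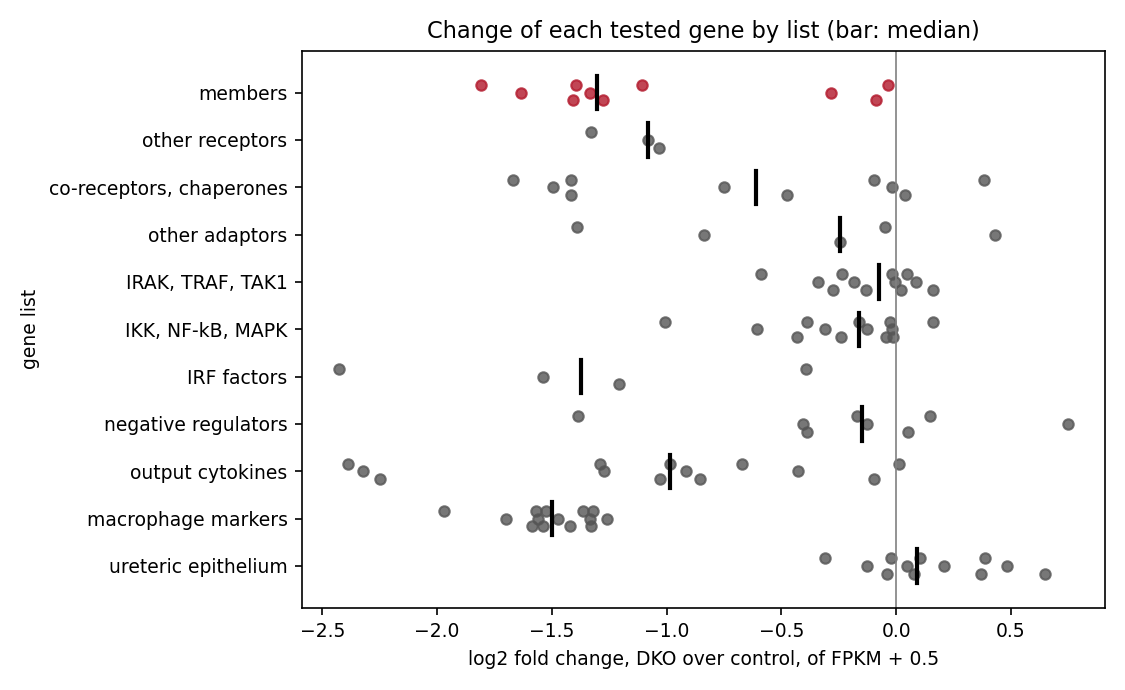
Log2 fold change, DKO over control, of FPKM + 0.5 for each tested gene of the members, of the pathway lists and of 2 marker lists, with 1 point per gene and a bar at each list's median. Medians are -1.30 for the members, -1.50 for the macrophage markers, -0.07 for the genes between adaptors and TAK1 (TAK1 included) and 0.09 for the ureteric epithelium markers.

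The genes whose pattern was nearest to the mean pattern of the 10 members were Aire, Rnf144b, Trafd1, Pla2g15 and Sirpa, with Euclidean distances of 0.0699 to 0.0845 over the centred log2(FPKM + 0.5) values of 4 libraries, among 14415 genes. Sirpa, for example, stood at 46.4 and 42.5 FPKM in DKO and at 126 and 71.9 FPKM in control libraries, and Aire at 6.79 and 6.38 against 17.7 and 10.6 FPKM. With 4 libraries of which 1 stands apart, this ranking describes these libraries only. The mean pattern joins the 7 lower members with Tlr3, Tlr12 and Myd88, which were near equal between the groups. The 5 nearest genes had log2 fold changes from -1.09 to -0.99.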

How the data were processed

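The authors aligned strand-specific reads to mm10 with Ensembl release 72 and deposited FPKM per gene and library, with TopHat 1.4.1 and Cuffdiff 2.2.1 per the submitters' processing notes. The scaling between libraries is not given in the sources consulted, and 2 empty lines were left out. The test, chosen because FPKM hold no counts, was limma 3.58.1 (R 4.3.3, variance trend, two-sided) on log2(FPKM + 0.5), which understates changes of low genes. The values 0.1 FPKM and 2-fold are those of the study, applied here to the larger group average and to a ratio of at least 2, so genes at 0 in 1 group stayed in. Replicates are separate pools of embryos, and FPKM give no counting interval.

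The members and lists were chosen with earlier results of these data known. Named genes were the members, the rest of the receptor family, the 3 most abundant of each pathway list, up to 2 of each cell type list, Esrp1 and the 5 nearest genes of at least 1 FPKM on average. Others are said to be chosen later. A few listed genes are not analysed here. The test was tried on simulated data. Alternatives were pseudocounts, filters, scaling, variance settings, a replicate block and each library left out. Figures used matplotlib 3.10.9 under Python 3.11.15.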

Additional observations from a re-analysis of the deposited data

How the results depend on the processing

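Genes called over all genes tested numbered 4, and 1 without a filter on low values, 2 without a variance trend and 0 in each fit with 1 library left out (0 to 0). A lone library in such a fit is assumed to vary like the other group. With the replicate number as a block the count was 16. The numbers mark pools of embryos. With only 2 pairs (correlation of deviations 0.105), whether libraries of the same number share more than that number cannot be told. Members lower at an unadjusted p under 0.05 were 7 under every setting with all 4 libraries, the block included. That count fell without either DKO library, as did the count over all genes. Members at least 2-fold lower ranged from 4 to 7 with 1 library left out. Those with both DKO libraries below both controls were 7 on rescaling to TPM. Leaving out a library makes that order easier to meet, so counts of 8 to 9 in those fits show no stability. All 91 alternative values of the 7 lower members stayed below 0, the smallest in size being -0.63 for Unc93b1 without control replicate 1, and none reached an adjusted p of 0.05 with limma (lowest 0.142, Tlr7 with the block). The sign turned for Tlr3 on rescaling to TPM (0.033) and without control replicate 2 (0.016), and for Tlr12 on rescaling to TPM (0.053), without DKO replicate 2 (0.24) and without control replicate 1 (0.042), so that values with 1 library left out ran from -0.19 to 0.016 for Tlr3 and from -0.31 to 0.24 for Tlr12. The cause was not tested. Rescaling to TPM moved the median of all genes to 0.11 and split the genes with an unadjusted p under 0.05 into 939 lower and 1292 higher, against 1388 and 633 before. Differences relative to the macrophage markers moved by more than the spread between replicates in 3 of 90 alternatives, to -0.01 and 0.21 for Tlr1 and to -0.29 for Tlr9 under other pseudocounts, but where controls lay far apart that spread was wide, and with 1 library left out Tlr8 ran from -0.20 to 0.64 and Tlr3 from 0.80 to 2.02. Without read totals, how far depth limits the lowest members, such as Tlr12, is unknown.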
